A study of Mus musculus with 6 samples.

Results

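The genes described here encode 8 enzymes of triglyceride synthesis, from the supply of glycerol-3-phosphate to the last acylation: Gpd1, Gpam, Agpat2, Agpat3, Lpin1, Lpin2, Dgat1 and Dgat2. They were taken by gene symbol, not by their values, and all 8 are among the 13283 genes of the deposited table. RNA was sequenced from BAT cells, an immortalized line of mouse brown preadipocytes that stably expresses Cas9, after differentiation in culture. There were 3 libraries of MICT1 KO cells and 3 of controls that carried a scrambled sgRNA (Scr). MICT1 is a microprotein of brown adipocytes, and the comparison asks how its loss changes gene expression. All 6 cultures, labelled WT or MICT1-CRISPR KO, received 10 µM forskolin, an activator of adenylyl cyclase, for 6 h on day 6 of differentiation. The KO cells were pools sorted for the GFP of the sgRNA vector, the labels do not say which of the sgRNAs each library carried, and no other line was sequenced. No value of MICT1 was analysed, and the knockout labels are therefore unchecked at the targeted gene.

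Triglyceride is the form in which adipocytes store fatty acids, and in brown adipocytes the stored fat feeds heat production. Glycerol-3-phosphate, made from a glycolytic intermediate by Gpd1 or from glycerol by glycerol kinase, takes up a fatty acyl chain from a glycerol-3-phosphate acyltransferase such as Gpam to give lysophosphatidate. An Agpat enzyme adds the next chain to give phosphatidate, a lipin removes the phosphate to give diacylglycerol, and a Dgat enzyme adds the last chain. Phosphatidate and diacylglycerol are also the starting points of phospholipid synthesis.

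The values are normalized read estimates per gene. In each library most low values were whole multiples of a single step, the value of 1 read, which lay between 0.927 and 1.05. The values therefore stand for 15445878 to 17925571 reads per library, and a value is close to a number of reads. Pearson correlations of log2 values across tested genes were 0.987 to 0.990 within a group and 0.929 to 0.940 between the groups. The rRNA precursor gene Rn45s took 1.92% of the values of Scr replicate 2, where it was the highest gene, and Scd1 or Eef1a1 was the highest in the other libraries.

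Of the 8 enzymes, 7 were lower in MICT1 KO cells and none was higher, and Lpin2 did not pass the test. The falls ranged from 1.79-fold for Agpat3 to 83.3-fold for Gpd1, and 5 members fell at least 2-fold. Calls are those of limma-trend on log2(value + 1) with an adjusted p under 0.05 by Benjamini-Hochberg over the 12507 genes tested, all 8 members among them. By the same test 56.9% of all genes changed, 28.3% were lower and 5.76% were at least 2-fold lower. The 3 KO values lay below the 3 Scr values in 7 of the members and in 31.2% of all genes tested. The median log2 fold change was -1.48 over the 8 members and -0.005 over all genes tested. In bulk RNA, fewer adipocytes and less RNA of a gene per adipocyte cannot be told apart, and markers of adipocytes fell in the same libraries, as given further on. Whether the 3 libraries of a group came from separate differentiations is not stated in the labels, and p-values measure the spread between these libraries only.

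**Figure D1:**
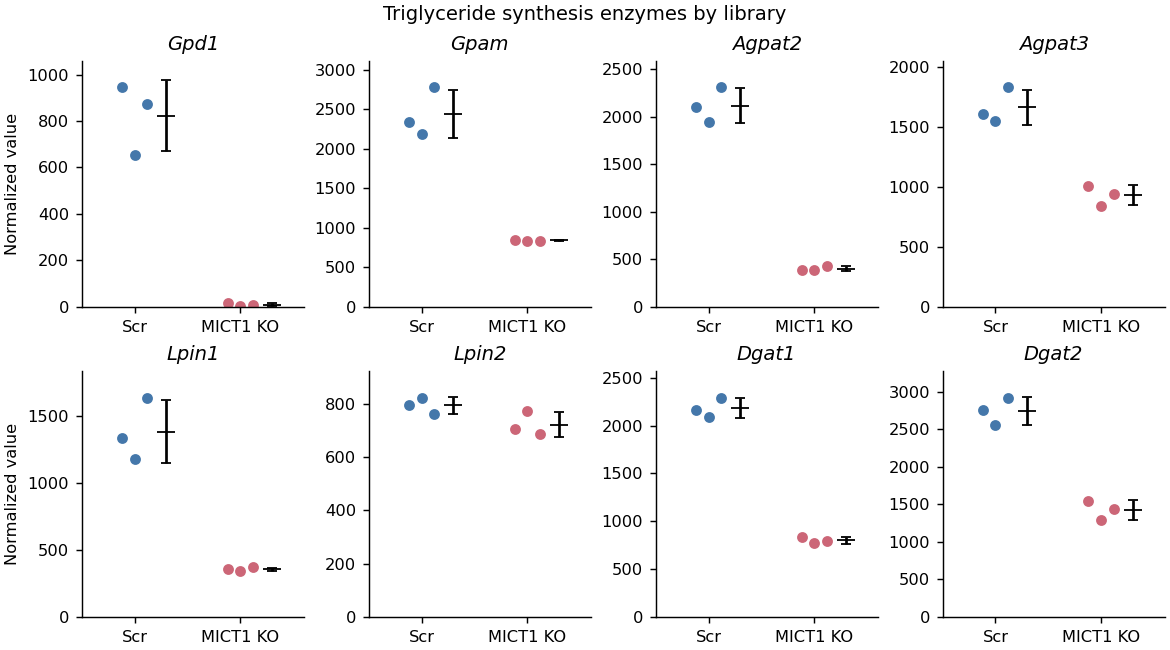
Normalized value of each enzyme (vertical axis, linear from 0) in the 3 Scr (blue) and 3 MICT1 KO (red) libraries, with the group mean ± SD in black. The KO points lie below the Scr points in 7 panels, and the groups overlap for Lpin2.

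Gpd1, the cytosolic glycerol-3-phosphate dehydrogenase, showed the largest change. It lies on chromosome 15 from 99717515 to 99725005 (GRCm38, plus strand). Its values were 944.5, 651.6 and 873.0 in the Scr libraries, against 17.2, 3.16 and 9.33 with MICT1 KO. Every KO library was thus near the bottom of the measured range, with 18, 3 and 9 reads, and the 3 Scr libraries held 2516 reads together. The means were 823 ± 153 and 9.88 ± 7.02 (SD, n = 3). The log2 fold change was -6.47 (SE, the standard error, 0.348, limma-trend adjusted p = 1.52e-12). Scaled for the value of 1 read in each library, the ratio of Scr to KO reads was 80.9, with an exact 95% interval from 56.5 to 120.0 that covers counting error only. For the 3 reads of KO replicate 2 the exact Poisson interval was 0.619 to 8.77 reads. An antisense gene overlaps 384 exon bases of Gpd1 in the annotation and is not among the genes listed.

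Gpam, the mitochondrial glycerol-3-phosphate acyltransferase, lies on chromosome 19 from 55067268 to 55127238 (minus strand). Its values were 2344, 2192 and 2778 in the Scr libraries, against 850.4, 838.7 and 839.6 with MICT1 KO. The KO libraries were nearly identical and all below the lowest Scr library. These KO values rest on 892, 796 and 810 reads, so counting error alone exceeds their spread. The log2 fold change was -1.52 (SE 0.0769, limma-trend adjusted p = 5.22e-13), a fall of 2.89-fold.

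Agpat2, the lysophosphatidate acyltransferase whose loss in people causes generalized lipodystrophy, fell more than any member except Gpd1. It lies on chromosome 2 from 26593057 to 26604417 (minus strand). Its values were 2105, 1941 and 2309 in the Scr libraries, against 385.2, 388.8 and 431.2 with MICT1 KO, so that KO libraries kept 19.0% of the Scr mean. The log2 fold change was -2.39 (SE 0.0812, limma-trend adjusted p = 8.07e-16). Its exons share 64 bases with Egfl7 on the other strand, and the strand setting of the counting is not stated. Egfl7 itself had values of 51.9 to 96.9 in Scr and 65.8 to 100.1 in MICT1 KO libraries, below every value of Agpat2.

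Agpat3, a lysophospholipid acyltransferase that also serves phospholipid remodelling, lies on chromosome 10 from 78269178 to 78352489 (minus strand). Its values were 1612, 1554 and 1831 in the Scr libraries, against 1011, 845.0 and 940.2 with MICT1 KO. The groups did not overlap, and the fall of 1.79-fold was the smallest among the members that passed (log2 fold change -0.84, SE 0.0793, limma-trend adjusted p = 1.34e-08). Its exons share 16 bases with a gene on the other strand. The fall is just short of the 1.8-fold change that the methods ask for.

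The lipins dephosphorylate phosphatidate, and Lpin1 also acts as a transcriptional coactivator. Lpin1 lies on chromosome 12 from 16535669 to 16610966 (minus strand) and had values of 1336, 1179 and 1639 in the Scr libraries, against 354.6, 345.6 and 370.0 with MICT1 KO. All KO libraries were far below the lowest Scr library, with a log2 fold change of -1.94 (SE 0.1, limma-trend adjusted p = 7.89e-13). Lpin2, on chromosome 17 from 71182560 to 71249817 (plus strand), had values of 796.2, 824.1 and 762.2 in the Scr libraries, against 705.5, 774.4 and 687.2 with MICT1 KO. KO replicate 2 lay above Scr replicate 3, so the groups overlapped. Its log2 fold change was -0.14 (SE 0.0809, limma-trend adjusted p = 0.155), with a 95% interval from -0.31 to 0.031. A small fall of Lpin2 lies within this interval, and the falls estimated for the other members lie outside it.

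Promoter windows from RefSeq (GRCm38.p6) were found for 5 of the 8 members, Gpam, Agpat2, Agpat3, Lpin1 and Lpin2, with 8 windows in all. The 250 bases before a start site are shown for Lpin1 and Lpin2, which share a reaction and differed in response, and for Agpat2, the member with the largest fall among these 5. They lie at chr12:16610967-16611216 (minus strand), chr17:71183282-71183531 (plus strand, the most upstream of 3 Lpin2 windows, inside the annotated gene) and chr2:26604418-26604667 (minus strand), and none overlaps an annotated exon. Capitals mark matches to the motifs searched on both strands.

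Lpin1: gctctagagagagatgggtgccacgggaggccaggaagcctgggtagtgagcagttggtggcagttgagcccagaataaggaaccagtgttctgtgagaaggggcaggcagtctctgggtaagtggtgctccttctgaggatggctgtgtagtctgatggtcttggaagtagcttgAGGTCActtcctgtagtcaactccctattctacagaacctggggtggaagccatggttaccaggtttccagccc
Lpin2: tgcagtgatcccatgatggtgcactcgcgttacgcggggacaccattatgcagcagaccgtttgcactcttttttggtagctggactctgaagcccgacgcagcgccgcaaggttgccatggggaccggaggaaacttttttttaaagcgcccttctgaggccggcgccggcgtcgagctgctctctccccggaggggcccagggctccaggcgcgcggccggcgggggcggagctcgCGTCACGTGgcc
Agpat2: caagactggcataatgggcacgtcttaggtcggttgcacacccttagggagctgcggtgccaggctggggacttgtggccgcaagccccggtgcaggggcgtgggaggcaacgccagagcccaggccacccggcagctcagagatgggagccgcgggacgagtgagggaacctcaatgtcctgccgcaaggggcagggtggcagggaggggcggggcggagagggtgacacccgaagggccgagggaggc

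The motifs were TGACGTCA, the cAMP response element, and its shorter form TGACG, which it contains, CACGTG (E-box), CCAAT, TTNNGNAA (C/EBP-like), and AGGTCA, the unit bound by nuclear receptors, alone or as the direct repeat with 1 base between (DR1). The window of Lpin1 held AGGTCA at -74 to -69 from the start site. That of Lpin2 held TGACG on the reverse strand at -12 to -8 and an overlapping CACGTG at -9 to -4. That of Agpat2 held none of these letters. Over all 32851 windows of 250 bases, AGGTCA was found in 14.0%, TGACG in 17.8%, CACGTG in 6.0%, CCAAT in 33.8%, TTNNGNAA in 36.8%, TGACGTCA in 1.5% and the DR1 in 0.033%. Among the 8 windows of the members the counts were 2, 2, 1, 2, 2, 0 and 0 in that order. These matches are descriptions of the sequence and not evidence of binding.

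Dgat1 and Dgat2 catalyse the last acylation, to triglyceride, and belong to unrelated protein families. Dgat1 (chromosome 15 from 76502015 to 76511953, minus strand) had values of 2166, 2090.4 and 2294 in the Scr libraries, against 839.0, 773.4 and 791.9 with MICT1 KO. Dgat2 (chromosome 7 from 99153658 to 99182719, minus strand) had values of 2753, 2556 and 2924 in the Scr libraries, against 1548, 1291 and 1433 with MICT1 KO. The groups were well apart for both, and Dgat1 fell more. The log2 fold change was -1.44 for Dgat1 (SE 0.0676, limma-trend adjusted p = 1.54e-13) and -0.95 for Dgat2 (SE 0.0713, adjusted p = 3.65e-10), or falls of 2.72-fold and 1.93-fold.

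Enzymes that act at the same step were compared within each library, as the log2 ratio of their values, so that the scaling of the library cancels. Only the difference of a ratio between the groups is read, since the ratio itself also carries the lengths of the genes. Agpat2/Agpat3 was 0.38, 0.32 and 0.34 in the Scr libraries, against -1.39, -1.12 and -1.12 with MICT1 KO, a difference of -1.56 or 2.94-fold. Lpin1/Lpin2 was 0.75, 0.52 and 1.10 in the Scr libraries, against -0.99, -1.16 and -0.89 with MICT1 KO, a difference of -1.80 or 3.49-fold. Dgat2/Dgat1 was 0.35, 0.29 and 0.35 in the Scr libraries, against 0.88, 0.74 and 0.85 with MICT1 KO, a difference of 0.50 or 1.41-fold. In each of the 3 ratios the groups did not overlap, and the two-sided exact permutation test gave p = 0.1, and 0.1 after Benjamini-Hochberg adjustment over the 3. That is the smallest p that 3 libraries against 3 can give, so these ratios cannot reach 0.05 by that test.

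**Figure D2:**
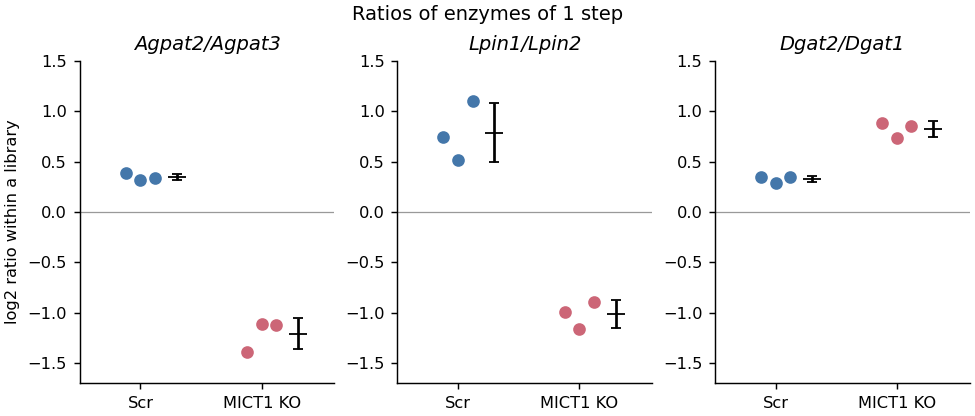
Log2 ratio of the values of the 2 enzymes within each Scr (blue) and MICT1 KO (red) library, with mean ± SD in black. In MICT1 KO libraries Agpat2/Agpat3 and Lpin1/Lpin2 were lower and Dgat2/Dgat1 was higher, with no overlap in any panel.

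Levels of different genes were compared per length, as RPKM over all annotated exons. In Scr libraries Agpat2 (60.8 ± 5.67 RPKM, SD, n = 3) and Dgat2 (54.4 ± 4.09) were highest, and their ranges over libraries overlapped. Dgat1 (43.7 ± 2.34), Gpam (22.4 ± 2.85), Gpd1 (17.0 ± 3.39), Agpat3 (13.1 ± 1.18), Lpin1 (8.76 ± 1.51) and Lpin2 (3.97 ± 0.142) followed. In MICT1 KO libraries the order was Dgat2 (28.3 ± 2.43 RPKM), Dgat1 (16.1 ± 0.586), Agpat2 (11.6 ± 0.787), Gpam (7.75 ± 0.0157), Agpat3 (7.33 ± 0.620), Lpin2 (3.62 ± 0.236), Lpin1 (2.26 ± 0.0836) and Gpd1 (0.204 ± 0.144). Gpd1 thus went from the middle of the order to its end, and Lpin2 came to stand above Lpin1. Gpam and Agpat3 were closer to each other in KO libraries than the spread of Agpat3.

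The remaining isoenzymes of each step did not all fall with the members. Gpat3, another glycerol-3-phosphate acyltransferase, fell from 1762 ± 169 to 683 ± 74.7 (SD, n = 3), or by 1.37 on the log2 scale (SE 0.0857, limma-trend adjusted p = 1.86e-11). Gpat4, which acts at the endoplasmic reticulum, rose from 3026 ± 169 to 3544 ± 119 (log2 fold change 0.23, adjusted p = 0.00211). Gpat4 made up 34.3% ± 1.14 of the summed RPKM of Gpam, Gpat3 and Gpat4 in Scr and 62.3% ± 1.56 in MICT1 KO libraries (SD, n = 3), and the sum itself was 64.6% of that in Scr.

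Among the 5 Agpat genes, Agpat2 made up 51.3% ± 1.92 of the summed RPKM in Scr and 18.0% ± 1.09 in MICT1 KO libraries (SD, n = 3). Agpat1, with a log2 fold change of 0.078 (adjusted p = 0.366 from limma-trend), went from 24.2% ± 1.02 to 47.1% ± 1.58 and was the most abundant of them in KO libraries. Agpat4 rose (0.67, adjusted p = 0.000655) and Agpat5 fell (-0.44, adjusted p = 6.71e-06). Agpat3 held a share of 11.4% ± 0.607 in MICT1 KO libraries, with a Scr mean inside that spread. The summed level of the 5 genes was 54.3% of that in Scr. Lpin1 went from 60.8% ± 4.73 to 28.4% ± 2.08 of the summed RPKM of the 3 lipins, whose sum was 55.7% of that in Scr. Lpin3, at values of 86.2 to 139 in all libraries, had a log2 fold change of 0.39 (adjusted p = 0.0885). Dgat2 went from 55.5% ± 0.574 to 63.7% ± 1.23 of the Dgat sum, and that sum was 45.2% of that in Scr. These shares are descriptions without a test. The shares were also computed with the length of the longest coding transcript in place of all exons, a choice made after seeing the data. Each share then moved the same way between the groups. At the lipin step the sizes depended on the length used. The rise of the Lpin2 share went from 17.4 to 22.0 percentage points, and that of Lpin3 from 15.0 to 9.26.

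**Figure D3:**
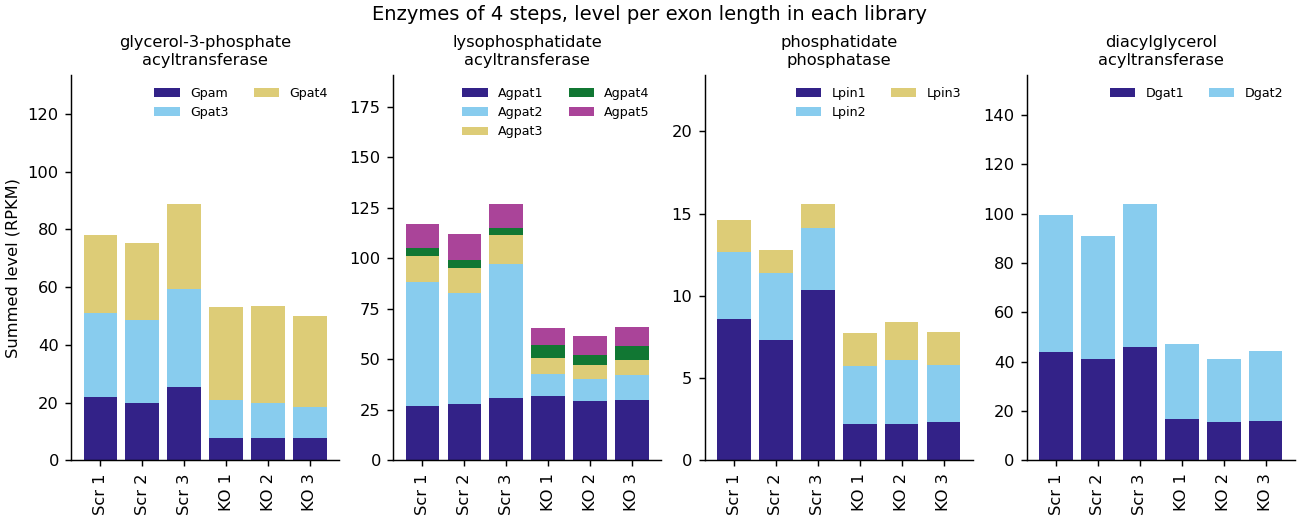
Level per exon length (RPKM, stacked bars from 0) of the enzymes of 4 steps in each of the 6 libraries. In MICT1 KO libraries the bars are shorter at every step, and Gpat4, Agpat1 and, at the lipin step, Lpin2 and Lpin3 take larger parts of them.

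Of 29 other genes of the route and its branches, 23 were in the table and tested. By limma-trend, at an adjusted p under 0.05, 8 of these were lower and 6 were higher, 9 did not pass, and the median log2 fold change was -0.016. Over all genes tested 28.3% were lower and 56.9% changed in either direction. A gene lost altogether in a library would not be listed, so counts and median cover the listed genes only. The 2 that changed at least 2-fold were Gpat3 and Gk, the glycerol kinase, which fell from 862 ± 55.8 to 364 ± 80.6 (SD, n = 3, log2 fold change -1.26, SE 0.125, adjusted p = 2.70e-08). Gpd1l, a relative of Gpd1, also fell (-0.53, adjusted p = 0.000610). Gpd2, the mitochondrial dehydrogenase that consumes glycerol-3-phosphate and so is not a source of it, rose (0.25, adjusted p = 0.00541). Of the lipin regulators, Cnep1r1, a subunit of the lipin phosphatase, rose (0.26, adjusted p = 0.00423) and the catalytic subunit Ctdnep1 did not pass (0.077). Of 12 genes of the phospholipid branches, 4 were lower, 2 were higher and 6 did not pass. They ranged from -0.64 for Chpt1, a cholinephosphotransferase, to 0.37 for Cept1, a choline and ethanolamine phosphotransferase. Pck1, Aqp7, Gpat2, Mogat1, Mogat2 and Cds1 were not analysed here.

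**Figure D4:**
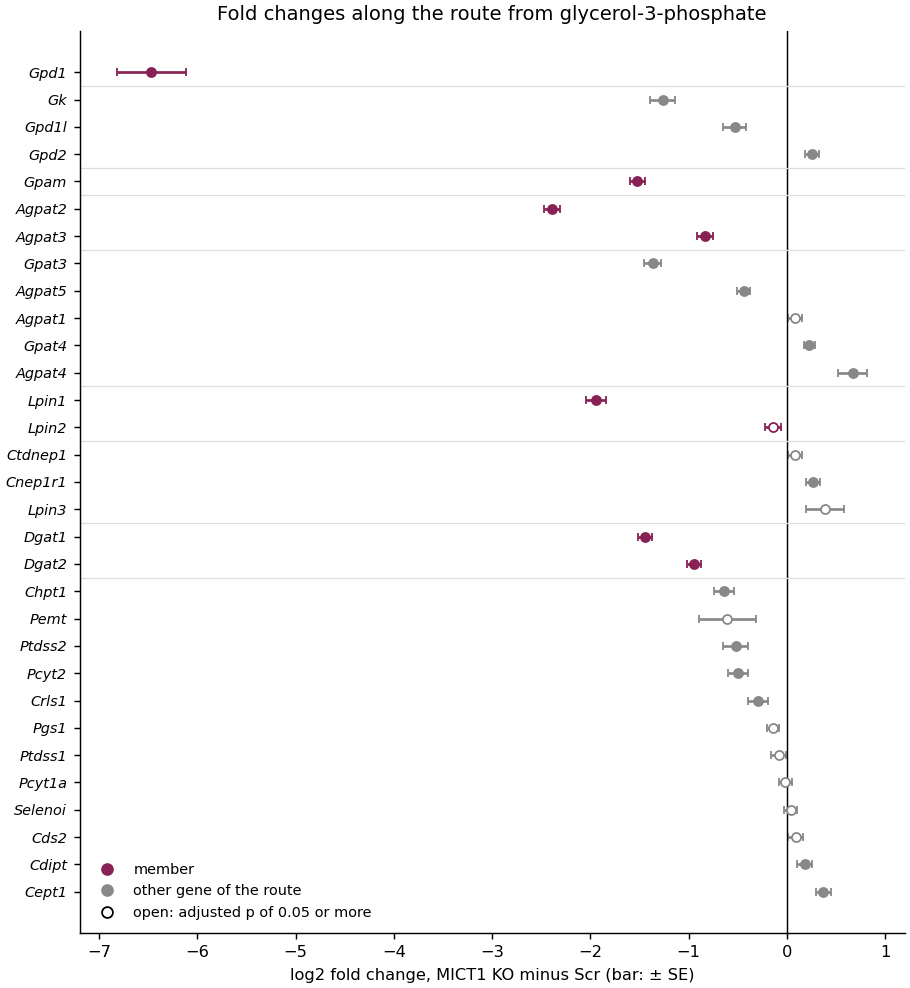
Log2 fold change between MICT1 KO and Scr (horizontal axis, points, with ± SE bars) of the 8 members (purple) and 23 other genes of the route and its phospholipid branches (grey), in the order of the steps, with open points for an adjusted p of 0.05 or more. Among the filled points Gpd1 is farthest to the left at -6.47, and the phospholipid branches at the bottom stay between -0.64 and 0.37.

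Markers of adipocytes and of their progenitors moved with the same contrast. Of 15 listed adipocyte markers 14 were tested and all 14 fell, by at least 2-fold each, with a median log2 fold change of -3.99 and the largest falls in Cfd (-6.77), Adipoq (-6.66) and Plin1 (-5.93), which encode adipsin, adiponectin and perilipin 1. Their summed value, most of it from Fabp4 and Lpl, was 141300 to 170000 in Scr and 15830 to 22600 in MICT1 KO libraries. Lep was not among the genes listed. Apart from Gpd1, the members that fell did so by less than the median of these markers. Of 9 adipose progenitor markers 7 were in the table and 5 were tested. Fn1 (1.91), Ly6a (1.39) and Col1a1 (0.77) rose, whereas Dlk1 (-3.47) fell. Pdgfra fell slightly (-0.19, limma-trend adjusted p = 0.0347), with groups that overlapped. The summed value of the 7 was 42230 to 46000 in Scr and 114000 to 130600 in MICT1 KO libraries. Fn1 and Col1a1, which encode the matrix proteins fibronectin and a collagen chain, made up most of that sum. The other 5 markers summed to 3165 to 3459 in Scr and 2730.0 to 3133 in MICT1 KO libraries, without the rise of the full list. That smaller sum joins opposite changes, with Ly6a higher and Dlk1 and Pdgfra lower.

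Normalized values were low for the brown adipocyte markers in the table and for markers of other cell types. Of 9 brown adipocyte markers only Ucp1, Ppargc1a and Cox7a1 were in the table, and Cidea, Dio2, Prdm16, Elovl3, Cox8b and Adrb3 were not analysed here. The 3 summed to 121.4 to 155.7 in Scr and 129.6 to 176.2 in MICT1 KO libraries. Cox7a1 made up most of that sum, which thus hides the fall of Ucp1. Per exon length Cox7a1 was at 11.9 ± 1.92 RPKM in Scr libraries (SD, n = 3). On that scale it was not low, with a mean between those of Lpin1 (8.76) and Agpat3 (13.1). A gene lost altogether in a library would not be listed, so the 3 brown adipocyte markers cannot tell how brown the cells were. Ucp1 itself, the uncoupling protein, fell from values of 20.8 to 30.5 to values of 1.05 to 9.33, near the bottom of the measured range. Its log2 fold change was -2.71 (SE 0.637, limma-trend adjusted p = 0.00112). Cox7a1 did not pass (0.35, adjusted p = 0.141) and Ppargc1a was too low to be tested, and for both the groups overlapped. Csf1r and Cd68, the 2 of 5 macrophage markers in the table, summed to 81.4 to 133 in Scr and 101 to 142 in MICT1 KO libraries, and neither passed. Cdh5, the 1 of 4 endothelial markers in the table, rose from 8.71 ± 3.10 to 29.9 ± 3.76 (SD, n = 3, log2 fold change 1.71), and Des, the 1 of 4 muscle markers, did not pass. The part of these cell states in the falls of the members was not tested.

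**Figure D5:**
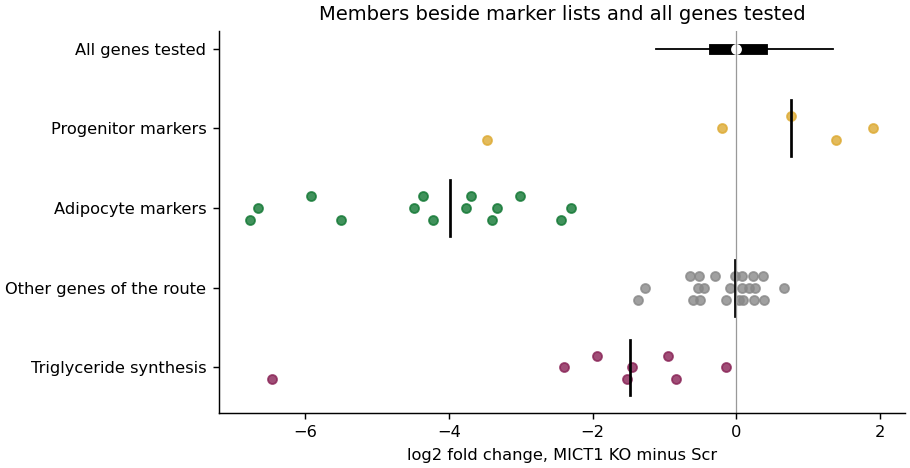
Log2 fold change between MICT1 KO and Scr of single genes (points) in the list of members, the other genes of the route, adipocyte markers and progenitor markers, with list medians as vertical lines, beside all genes tested (thick bar from the 25th to the 75th percentile, thin line from the 5th to the 95th, median in white). The members have a median of -1.48, between that of the other genes of the route that were tested (-0.016) and that of the adipocyte markers (-3.99).

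The genes whose profile over the 6 libraries was most like that of Gpd1, by the root mean square difference of centred log2 values, were Adipoq (0.334 on the log2 scale), Cmbl (0.523) and Plin1 (0.525). Like Gpd1, all 3 had their lowest value in KO replicate 2, which a choice by likeness over these same libraries favours. Gpd1, Adipoq and Cmbl each had a value of 3.16 there, near the bottom of the measured range.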

How the data were processed

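RNA-seq was measured in 3 Scr and 3 MICT1 KO libraries. Per the methods, strand-specific total RNA libraries were sequenced as read pairs and then aligned in Partek to the mouse build NCBI38/mm10. The submitters' processing notes also name STAR and DESeq2. The counting model, annotation and normalization are not given in the sources used here. The authors deposited a normalized signal per gene, above 0 in all 13283 genes and 6 libraries, so that a gene lost altogether in a library would not be listed. Between 88.7% and 90.2% of values under 20 were whole multiples of the value of 1 read (tolerance 0.01), too few for a count test.

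Libraries were grouped by their labels. limma-trend (limma 3.58.1, R 4.3.3) compared log2(value + 1) in the 12507 genes that reached a value of 10 in 3 or more libraries, so fold changes of low genes are understated. The threshold was an adjusted p of 0.05. RPKM used exon lengths of GENCODE vM21 (GRCm38), found for 98.9% of genes, and positions come from the same annotation. The fit was tested on simulated data. The members, the gene lists and the rule for the genes named were chosen with earlier results of these data known. The rule names every member, each other gene of the route that changed at least 2-fold, the 3 largest changes in each marker list and the 3 genes most like the member that changed most. Other genes of the route and markers that are named beyond it were chosen after their values were seen.

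Alternatives were other pseudocounts, scalings, filters and variance models, the methods' own fold and p, a block for the replicate number, leaving out each library, and, added after seeing the data, another gene length.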

Additional observations from a re-analysis of the deposited data

How the results depend on the processing

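The 8 members were refitted under 16 alternatives each. Other filters, other variance models, the replicate block and the methods' own fold and p leave a log2 fold change as it is. They could thus not change its direction, and only the remaining alternatives could. The direction of the members held in all of these 128 values, and the side of the threshold in 127. The exception was Agpat3, whose log2 fold change of -0.84 falls short of the fold of the methods. With that fold and the p of the methods (1.8-fold, limma-trend p under 0.05 without adjustment), 924 of all genes tested were lower and 1265 higher. The main test gave 3544 and 3569. The methods also set a minimum RPKM and gene length and used another test, in Partek, so these are not the counts of the study. When single libraries were left out, the log2 fold change of Gpd1 lay between -6.96 and -5.89, that of Agpat2 between -2.46 and -2.33, that of Lpin1 between -2.05 and -1.81, that of Dgat2 between -1.01 and -0.88 and that of Lpin2 between -0.19 and -0.10. The adjusted p of Lpin2 stayed between 0.0763 and 0.369 over its alternatives. With a pseudocount of 5 Gpd1 was at -5.90. Deviations of same-numbered libraries from their group means correlated at -0.024, -0.015 and 0.064, and those of the other pairs at -0.043 to 0.056. These correlations are small, and they cannot tell whether same-numbered libraries shared a culture batch. With a replicate block, 3512 genes were lower and 3543 higher, 7 members were lower, and no call among the members changed. Depth limits Gpd1 most, with 3 to 18 reads in the MICT1 KO libraries.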
